A study of Mus musculus with 2688 samples.

Results

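Embryonic microglia were compared along the head-to-tail axis of the central nervous system. The rostral side was forebrain and midbrain, with 4 region samples each, and the caudal side was cerebellum and spinal cord, again with 4 each. Members were taken by label: all 16 embryonic region samples of the 51 in the study, which held 701 of its 2402 kept cells. The choice was made with earlier results of these data known. A region sample is the sum of the kept cells of 1 region and 1 replicate. It held 36 to 47 cells, giving 349 rostral and 352 caudal cells.

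All groups were wild-type animals of the CD1 strain, labelled embryonal with no day given. Tissue was homogenised after perfusion, cells were enriched on a Percoll gradient, and microglia were sorted singly into 384-well plates after staining for CD11b, CD45, Ly6C, Ly6G and CD206. Full-length cDNA libraries were made by SmartSeq2, a method without molecular identifiers. The series text names replicate mice and says that regions could come from the same mice, but not which replicate numbers share a mouse, nor whether embryos were pooled, so p-values measure the spread between these samples. For comparison, the study has caudal (cerebellum, spinal cord) and rostral (cortex, hippocampus) samples of 3 weeks and 16 weeks, of the same strain. Forebrain and midbrain cells lay on 1 plate and cerebellum and spinal cord cells on another, so side and plate cannot be told apart in any caudal-rostral value below. Midbrain against forebrain and spinal cord against cerebellum are comparisons within a plate.

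Microglia are the resident macrophages of the brain and spinal cord. They descend from yolk sac progenitors that enter the neural tube early in development, divide there and settle in every region. Their survival depends on the receptor CSF1R, whose ligand IL34 is made mainly in forebrain regions while CSF1 serves many caudal and white matter regions in the adult. In the embryo and the first days after birth, part of the population divides and a small part takes a phagocytic form that expresses Spp1 and Gpnmb, best known from developing axon tracts.

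Depth was close between sides. The summed counts per region sample were 11682617 to 22735442 rostrally and 12996779 to 18884413 caudally. Forebrain replicates 1, 2 and 3 stood apart, with medians of 77047 to 115077 reads per cell against 298684 to 617046 in the other 13. The median mitochondrial share was 2.15% to 3.59% rostrally and 2.76% to 4.58% caudally. The cells carried the markers of the label on both sides: as a mean over samples, Cx3cr1 was detected in 98.8% of rostral and 99.5% of caudal cells and P2ry12 in 99.4% and 99.4%. Among the antigens of the sort, Itgam (CD11b) ranged from 456 to 932 CPM rostrally and from 338 to 974 caudally; CPM are counts scaled to the library size.

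Few genes passed the test between caudal and rostral embryonic microglia. Of 14884 genes tested with edgeR (quasi-likelihood test, Benjamini-Hochberg adjustment over all genes, threshold 0.05), 1 was lower caudally (0.00672% of genes) and 0 were higher. At an unadjusted p under 0.05, 477 genes were higher (3.2%) and 690 lower (4.64%), in all 7.84%. DESeq2, run as an alternative, called 70 higher (0.435%) and 114 lower (0.709%) of 16085 genes with an adjusted p, in all 1.14%, and 139 of these 184 had a mean under 20 CPM. The median log2 difference (caudal minus rostral) over all genes was -0.04.

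The gene that passed was Atp8a1 (chromosome 5, 67618140 to 67847434, minus strand, GRCm38; counted over its exons), which encodes a flippase that moves phosphatidylserine to the inner leaflet of membranes. Rostral samples lay at 137 to 237 CPM with a median of 156, and caudal samples at 60.7 to 126 CPM with a median of 84.7. The 8 caudal samples all lay below the 8 rostral samples. The level was 164 ± 32.9 CPM rostrally and 86.2 ± 21.95 caudally (SD, n = 8 each), 1.93-fold lower caudally (log2 -0.95 ± 0.13 SE, 95% interval -1.23 to -0.67, edgeR adjusted p = 0.0198). By region the means were 181 ± 38.2 CPM in forebrain, 147 ± 17.4 in midbrain, 68.4 ± 7.44 in cerebellum and 104 ± 14.8 in spinal cord (SD, n = 4). As a mean over samples, reads were found in 59.9% of rostral and 56.3% of caudal cells. Leaving out any 1 of 9 samples (forebrain 1 or 2, midbrain 1 or 3, cerebellum 2, 3 or 4, spinal cord 1 or 2) took the adjusted p to between 0.0508 and 0.0948, with log2 values from -0.97 to -0.87. The call held in 9 of 19 other settings. A 2-group model gave an adjusted p of 0.18, limma on region means 0.993 and leaving out cycling cells 0.505 (edgeR except where limma is named). The call was also lost with the replicate number as a block, which treats samples of the same number as paired.

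Only 12 genes had groups that did not overlap (0.0806% of genes), 9 higher (0.0605%) and 3 lower (0.0202%) caudally; the following were named after their values were seen. Besides Atp8a1 the lower ones were Rab20, a small GTPase of phagosome and endosome maturation, and Aftph, a clathrin-associated trafficking protein. Rab20 ranged from 27.03 to 58.5 CPM rostrally (median 38.5) and from 9.10 to 20.7 caudally (median 13.95), a log2 difference of -1.56 ± 0.25 that missed the threshold (edgeR adjusted p = 0.0786) and passed it with DESeq2 (adjusted p = 1.94e-10), with counts as deposited (edgeR, 0.0246) and without Gpnmb and Spp1 positive cells (edgeR, 0.0427). Rab20 missed it in 16 of 19 other settings. It was detected in 18.9% of rostral and 10.8% of caudal cells, as a mean over samples. Aftph stood at 97.0 ± 37.1 CPM rostrally and 51.9 ± 13.2 caudally (edgeR adjusted p = 0.432). The 9 higher ones were E130309D02Rik and 8 predicted genes or pseudogenes at most 8.05 CPM on average on either side: Gm42497, Gm4760, Gm17087, Gm8730, RP23-179K7, Gm6180, Gm4973 and Eif4a-ps4. Of these, Gm42497 showed the widest gap in detection, with reads in 6.12% of rostral and 53.4% of caudal cells at 0.328 and 2.40 CPM. Near-identical parent genes can share reads with such pseudogenes, so their counts are uncertain.

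Rsrp1, which encodes a serine- and arginine-rich nuclear protein, was next by p. Its levels were 1634, 1971, 1792 and 2105 CPM in forebrain, 1105 to 1231 in midbrain, 634 to 1184 in cerebellum and 853 to 1211 in spinal cord. The high samples were the 4 of forebrain; midbrain overlapped both caudal regions. The caudal-rostral log2 difference was -0.65 ± 0.11 (edgeR adjusted p = 0.0786). It passed with DESeq2 (adjusted p = 0.000775), in 5 other settings (edgeR adjusted p from 0.0134 to 0.0498) and without cerebellum 1 (edgeR, 0.0188), and cerebellum was lower than forebrain by itself (log2 -1.06 ± 0.15, edgeR adjusted p = 0.0218). It missed in 13 of 19 other settings. Cerebellum 1 was the only 1 of 16 samples whose omission gave a pass, and the edgeR adjusted p reached 0.295. Adipor2, an adiponectin receptor, followed at 61.9 ± 21.1 CPM rostrally and 25.6 ± 4.98 caudally (edgeR adjusted p = 0.404), and passed with DESeq2 (adjusted p = 0.000145) and without forebrain 4 (edgeR, 0.0375). Adipor2 missed in 18 of 19 other settings. Forebrain 4 was the only 1 of 16 samples whose omission gave a pass, and the edgeR adjusted p reached 0.576. Mpeg1, which encodes a pore-forming protein of macrophages, stood at 2352 ± 517 and 1569 ± 253 CPM, and Dek, a chromatin protein, at 47.6 ± 10.7 and 89.7 ± 34.5 (edgeR adjusted p = 0.432 for both).

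**Figure D1:**
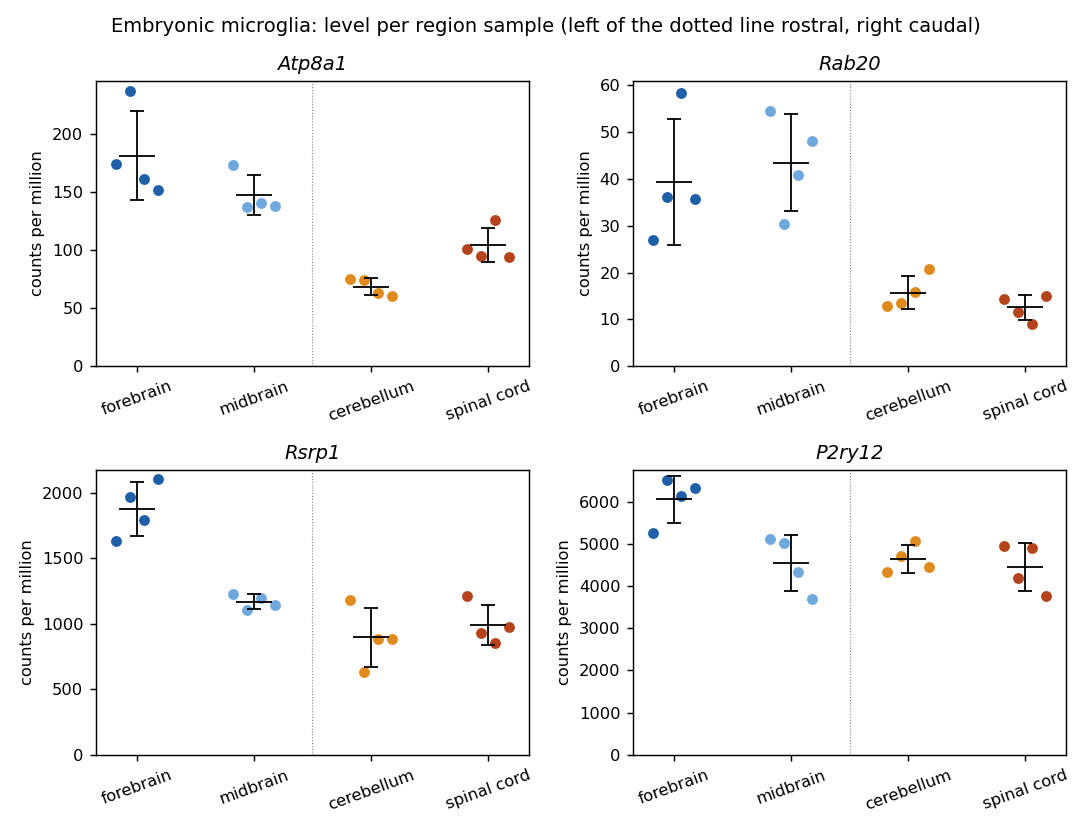
Levels in CPM (vertical axes, from 0) of Atp8a1, Rab20, Rsrp1 and P2ry12 in the 4 region samples of each region; dots are samples, bars the mean ± SD. For Atp8a1 and Rab20 all caudal samples lie under all rostral ones, while for Rsrp1 and P2ry12 forebrain is above the other 3 regions.

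The identity genes of microglia differed little along the axis. Of the 23 homeostatic genes listed, 22 were tested and 0 passed in either direction. At an unadjusted p under 0.05, 1 was higher and 5 were lower (3.2% and 4.64% of all genes). Their median log2 difference was -0.14, with 17 of 22 negative, against -0.04 and 7973 of 14884 over all genes. The 95% intervals of all 22 lay within a 2-fold change either way, and those of 19 within 1.5-fold. P2ry12, the ADP receptor that guides microglial processes, stood at 5301 ± 991 CPM rostrally and 4551 ± 447 caudally (log2 -0.21 ± 0.08, edgeR adjusted p = 0.552). Tmem119, a microglial surface protein, stood at 1330 ± 294 and 1235 ± 160 CPM, and Sall1, the transcription factor that maintains microglial identity, at 395 ± 85.9 and 344 ± 35.6. The log2 differences were -0.16 ± 0.07 for Cx3cr1, the fractalkine receptor, and -0.14 ± 0.06 for Csf1r.

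For the purinergic receptors the 4 regions did not split by side. P2ry12 ranged from 5262 to 6517 CPM in forebrain, 3685 to 5125 in midbrain, while cerebellum lay at 4334 to 5081 and spinal cord at 3768 to 4953. P2ry13, a related ADP receptor, ranged from 1970 to 2372 CPM in forebrain and from 1190 to 1687 over midbrain, cerebellum and spinal cord. All forebrain samples were thus above all others for both genes. Within the rostral plate, midbrain minus forebrain was -0.42 on the log2 scale for P2ry12 (edgeR adjusted p = 0.469), -0.51 for P2ry13 and -0.75 for Gpr34, a lysophosphatidylserine receptor (edgeR adjusted p = 0.448 for both). The low reads per cell of forebrain 1 to 3 coincide with the high forebrain values; forebrain 4, with 298684 reads per cell, stood at 6322 CPM for P2ry12 and at 2372 for P2ry13. The part of depth in these values was not tested further. With forebrain left out, the caudal minus rostral log2 values were 0.01 for P2ry12 and 0.08 for Tmem119.

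**Figure D2:**
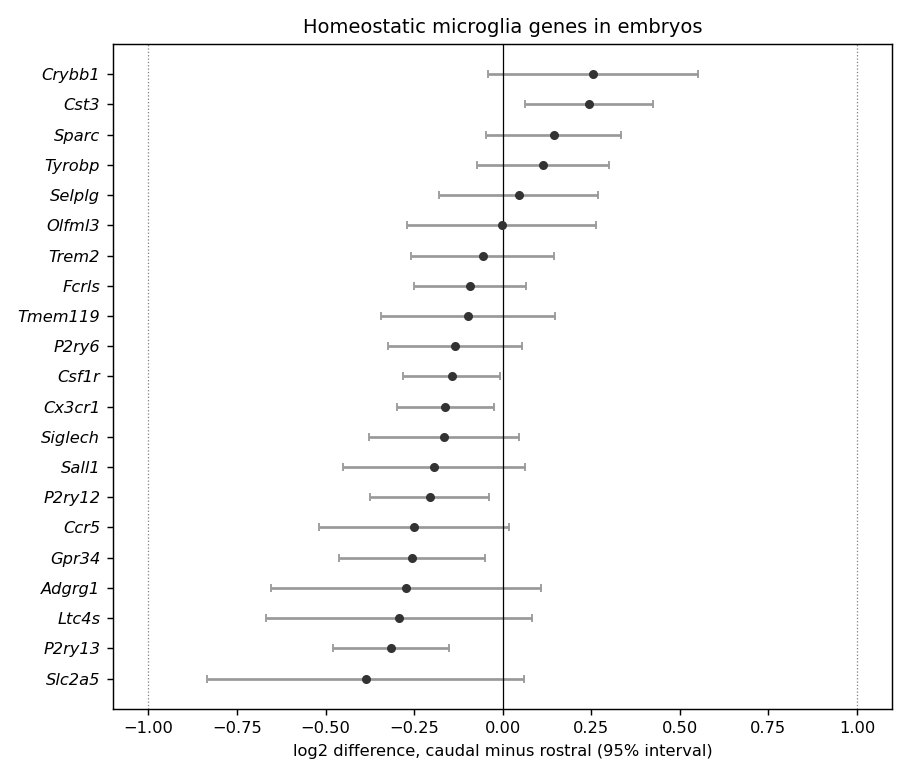
Caudal minus rostral log2 differences with 95% intervals (horizontal axis) of 21 of the 22 homeostatic genes tested, sorted by value; dotted lines mark a 2-fold change. Every interval drawn lies inside the dotted lines and none of the genes passed the adjusted threshold.

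Genes of cell division had mostly positive differences. All 20 G2/M genes, which act in chromosome condensation, the spindle and mitotic exit, had positive differences, with a median log2 of 0.95 and a range from 0.60 to 1.51. Of these 20, 15 were higher at an unadjusted p under 0.05 and 0 passed the adjusted threshold. These genes are carried by the same dividing cells, so they are not independent of one another. Mki67, the proliferation antigen, ranged from 37.8 to 155 CPM rostrally (median 79.5) and from 73.1 to 412 caudally (median 112), so the groups overlapped. Its log2 difference was 0.95 ± 0.34 (edgeR adjusted p = 0.545). Ube2c, the ubiquitin-conjugating enzyme of mitotic exit, stood at 28.7 ± 19.1 CPM rostrally and 75.6 ± 39.9 caudally (edgeR adjusted p = 0.471), and Cdk1, the mitotic kinase, at 87.1 ± 34.0 and 151 ± 71.2 (edgeR adjusted p = 0.551). Of 20 S phase genes, 19 had positive differences, with a median of 0.39. Of these 20, 4 were higher at an unadjusted p under 0.05 and 0 passed. Within plates the S phase median was 0.89 for midbrain minus forebrain and 0.35 for spinal cord minus cerebellum. With forebrain left out, the caudal-rostral S phase median was -0.11. Over all genes tested, 46.4% were positive and 3.2% were higher at an unadjusted p under 0.05.

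The summed level of the 20 G2/M genes ran from 324 to 1435 CPM rostrally and from 649 to 2844 caudally. The 2 highest samples were spinal cord 2 and 4, at 2844 and 2831, and the lowest was forebrain 2. Within plates the list median was 0.49 on the log2 scale for midbrain minus forebrain and 0.49 for spinal cord minus cerebellum. In the sums, midbrain and cerebellum overlapped, at 527 to 1435 and 649 to 2052 CPM.

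Single cells were thinned to 40000 reads each and counted as cycling if reads of 5 or more of the 20 G2/M genes remained; 68 of the 701 cells were shallower and left out, 43 of them from forebrain. Forebrain had 15.6% to 17.1% cycling cells, midbrain 13.6% to 33.3%, cerebellum 11.6% to 23.8% and spinal cord 21.4% to 38.2%. Spinal cord was the highest region on average, at 31.9% ± 7.52 against 18.3% ± 5.55 in cerebellum on the same plate (SD, n = 4), and 3 of its 4 samples lay above every cerebellum sample. The caudal mean was 25.1% ± 9.52 and the rostral mean 19.8% ± 6.35 (n = 8 each), a difference of 5.31 percentage points that was not larger than the spread (exact two-sided permutation test over all 12870 splits, p = 0.208, adjusted over the 2 cell shares tested 0.208). Without thinning the shares were 26.6% ± 9.96 and 20.4% ± 5.58 over all 701 cells. With spinal cord left out the difference was -1.50 points, and with cerebellum left out it was 12.1 points (exact permutation p = 0.76 and 0.0283).

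**Figure D3:**
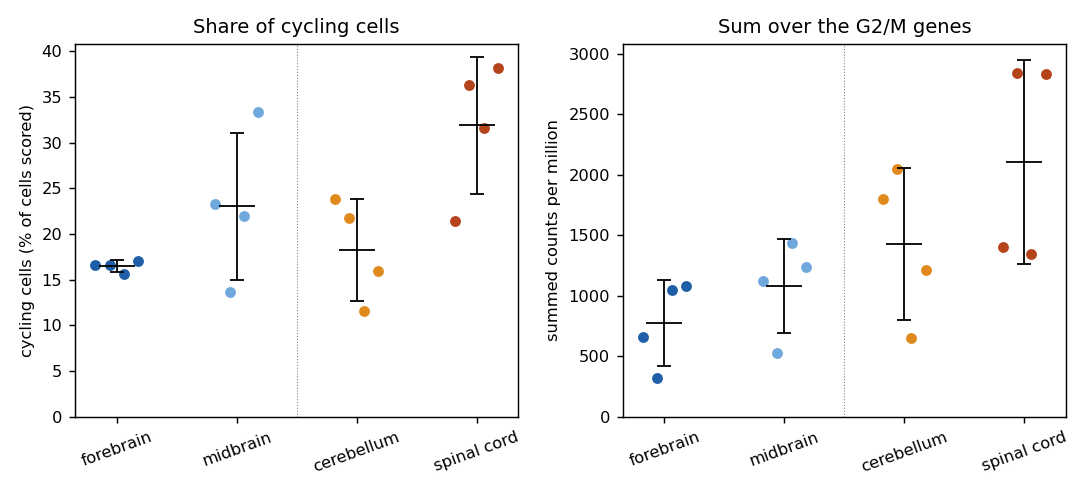
Share of cycling cells (left, percent of cells scored) and summed CPM of the 20 G2/M genes (right) per region sample, with mean ± SD. Spinal cord has the highest mean in both, and rostral and caudal samples overlap.

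Mitotic genes are known to share 2 promoter elements, the CHR (cell cycle genes homology region) that is bound by repressor and activator complexes of the cell cycle, and CCAAT boxes bound by NF-Y. Promoters were read from RefSeq (GRCm38.p6), from 250 bases before to 50 after each start. Of the 20 G2/M genes 17 matched. The CHR letters TTTGAA or the reverse TTCAAA occurred in 12 of 17 promoters, against 17.9% of all 32851 promoters, and CCAAT or ATTGG in 14 of 17, against 37.4%. Both were present in 11 of 17, against 6.95%. The 3 promoters with both and the lowest p in the caudal-rostral comparison are printed, with CHR and CCAAT letters of either strand in capitals; overlapping matches run together. A match describes letters only. Ube2c lies at chr2:164769679-164769978 on the plus strand, Mki67 at chr7:135716330-135716629 on the minus strand and Cdk1 at chr10:69352863-69353162 on the minus strand.
Ube2c: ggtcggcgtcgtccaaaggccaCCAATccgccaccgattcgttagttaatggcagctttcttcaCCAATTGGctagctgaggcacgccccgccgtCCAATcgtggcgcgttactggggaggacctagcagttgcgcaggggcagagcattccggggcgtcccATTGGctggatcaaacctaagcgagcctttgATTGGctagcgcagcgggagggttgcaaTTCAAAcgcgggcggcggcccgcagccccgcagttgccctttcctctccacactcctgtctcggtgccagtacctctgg
Mki67: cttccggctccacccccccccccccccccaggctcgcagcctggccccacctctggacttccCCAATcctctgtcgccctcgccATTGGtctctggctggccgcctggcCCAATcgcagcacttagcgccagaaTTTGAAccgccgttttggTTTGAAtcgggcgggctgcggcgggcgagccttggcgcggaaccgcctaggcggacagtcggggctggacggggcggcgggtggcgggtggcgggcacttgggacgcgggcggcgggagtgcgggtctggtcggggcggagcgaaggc
Cdk1: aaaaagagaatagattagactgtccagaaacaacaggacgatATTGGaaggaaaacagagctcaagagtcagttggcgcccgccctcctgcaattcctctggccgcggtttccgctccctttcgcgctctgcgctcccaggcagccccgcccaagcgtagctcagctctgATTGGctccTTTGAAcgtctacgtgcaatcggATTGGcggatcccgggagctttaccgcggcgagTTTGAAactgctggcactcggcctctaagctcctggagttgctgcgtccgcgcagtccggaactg

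In Ube2c the CHR letters lie once, downstream of the CCAAT boxes, while Mki67 and Cdk1 hold them at more than 1 place. Of the 20 G2/M genes, with or without these letters, 0 passed the adjusted threshold of the caudal-rostral comparison.

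Phagocytic microglia were rare and uneven. Of 28 genes of axon tract and phagocytic microglia, all tested, 20 were negative (53.6% of all genes), with a median log2 difference of -0.20. At an unadjusted p under 0.05, 2 were higher and 7 lower (3.2% and 4.64% of all genes), and 0 passed the adjusted threshold. Gpnmb, a transmembrane glycoprotein of phagocytes, ranged from 1.78 to 505 CPM rostrally (median 20.6) and from 0.199 to 32.9 caudally (median 1.40), with a log2 difference of -4.27 ± 1.11 (edgeR adjusted p = 0.432). DESeq2 called it (adjusted p = 0.00196), and the log2 value ran from -7.04 without cycling cells to -2.46 without spinal cord. Its reads came from 21 of 349 rostral and 15 of 352 caudal cells. In midbrain 4, the highest sample, 9029 of 9045 Gpnmb reads were in 1 cell. Spp1, the secreted phosphoprotein osteopontin, ranged from 304 to 10653 CPM rostrally and from 365 to 1518 caudally (log2 -1.27 ± 0.65, edgeR adjusted p = 0.661); the highest samples were midbrain 4 and forebrain 3, at 10653 and 5716, where the richest cell held 63.7% and 96.3% of the reads. Without midbrain 4 the log2 difference of Spp1 was -0.28, without forebrain 3 it was -0.39, and on region means it was -0.31. Itgax, which encodes CD11c, stood at 79.0 ± 50.01 and 29.6 ± 13.6 CPM, and Apoe, the lipid carrier, at 12976 ± 2959 and 15852 ± 2537. Vim, an intermediate filament gene, was on the higher side caudally at 39.2 ± 18.97 against 14.2 ± 11.9 CPM (edgeR adjusted p = 0.432).

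Cells with reads of both Gpnmb and Spp1 after thinning made up 2.27% to 4.88% of rostral samples and 0% to 4.55% of caudal samples, that is 9 of 300 and 6 of 333 cells. Cerebellum 3, spinal cord 3 and spinal cord 4 had none among 43, 38 and 34 thinned cells, which allows thinned shares of up to 6.98%, 7.89% and 8.82% by counting error alone. Before thinning, cerebellum 3 had 0 of 45 positive cells, spinal cord 3 had 4 of 42 (9.52%, the highest of the 16 samples) and spinal cord 4 had 2 of 41. The means were 3.02% ± 0.845 and 1.72% ± 1.61, a difference of -1.30 points (exact two-sided permutation test, p = 0.0642, adjusted over the 2 shares 0.128). Without thinning the means were 4.42% ± 2.56 and 3.75% ± 2.83 (exact permutation p = 0.647). Leaving out spinal cord 2 gave -1.71 points (exact permutation p = 0.00311), leaving out the whole spinal cord gave -1.32 points (exact permutation p = 0.0202), and requiring 10 reads of each gene gave -1.85 points (exact permutation p = 0.0219). These p-values were not adjusted. Of the 16 samples left out singly, spinal cord 2 was the only 1 to bring p under 0.05, and the highest exact permutation p was 0.128.

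Lysosomal genes had mostly small negative differences. Of 23 tested, 20 were negative (53.6% of all genes), with a median of -0.17. At an unadjusted p under 0.05, 9 were lower (4.64% of all genes), and 0 passed the adjusted threshold. Ctsz, a cathepsin, stood at 4218 ± 327 CPM rostrally and 3636 ± 210 caudally (log2 -0.21 ± 0.06), Grn, the progranulin gene, at 4959 ± 585 and 4139 ± 343, and Psap, which encodes saposin precursor, at 2759 ± 403 and 2271 ± 198. Actin cytoskeleton genes had the opposite sign in 16 of 20 (46.4% of all genes were positive), with a median of 0.13. Of these 20, 4 were higher at an unadjusted p under 0.05 (3.2% of all genes). Pfn1, the actin monomer binding protein profilin, stood at 605 ± 98.5 CPM rostrally and 819 ± 97.5 caudally (log2 0.44 ± 0.10, edgeR adjusted p = 0.432), and Tpm4, a tropomyosin, at 148 ± 19.7 and 208 ± 32.4.

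Receptor and signalling genes gave 0 calls with edgeR, and all counts in this paragraph are at an unadjusted p under 0.05, where 3.2% of all genes were higher and 4.64% lower. Of 17 chemokine and purinergic receptors tested, 4 were on the lower side and the median was -0.21. Of 13 genes of CSF1 and IL34 receptor signalling (median -0.15) 2 were on the lower side, Csf1r and Csf2rb, the shared beta chain of cytokine receptors, which stood at 161 ± 26.3 CPM rostrally and 116 ± 20.6 caudally. TGF-beta signalling genes, the pathway that maintains the homeostatic state, had 2 on the higher and 2 on the lower side of 18 (median -0.14); Tgfbr1, the type I receptor, stood at 818 ± 141 and 626 ± 96.3 CPM. Complement had 0 of 11 in either direction (median -0.05) and type I interferon response 0 of 17 (median 0.32). C1qb, a subunit of the first complement component, stood at 4467 ± 517 and 4947 ± 641 CPM. MHC class I presentation had 2 on the higher and 1 on the lower side of 15 (median 0.06).

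**Figure D4:**
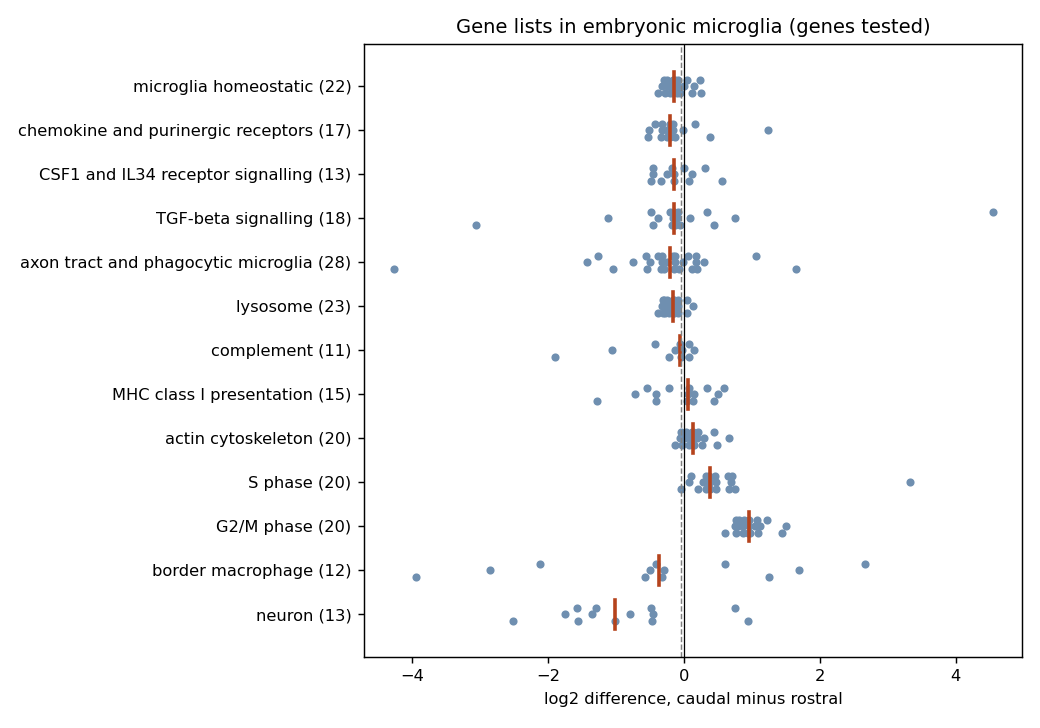
Caudal minus rostral log2 differences (horizontal axis) of the genes tested in 13 lists, with the number tested in brackets; dots are genes, the red bar the list median and the dashed line the median of all genes, -0.04. G2/M genes all lie above 0, and lists of low genes such as neuron markers spread widely.

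Regional patterning genes were near the detection limit. None of 29 Hox genes, which mark hindbrain and spinal cord tissue, passed the filter on low counts; their summed level was 0 to 3.9 CPM rostrally and 0.1 to 14.6 caudally. Of 19 forebrain and midbrain patterning genes 3 passed, and 0 were at an unadjusted p under 0.05. Markers of other cell types were measured as summed levels: neuron markers (16 genes) were 17.6 to 422 CPM rostrally and 10.0 to 109 caudally, astrocyte and radial glia markers (14 genes) 46.1 to 185 and 118 to 221, erythroid markers (10 genes in the table) 1.1 to 95.2 and 0.1 to 21.4, and monocyte markers (10 genes) 4.5 to 27.2 and 5.9 to 30.6. The neutrophil list (11 genes) summed to 318 to 603 CPM rostrally and 399 to 522 caudally, carried by Csf3r (404 and 382 CPM on average) and Cxcr2 (79.3 and 70.5), and the T, NK and B cell list (12 genes) to 1112 to 1600 and 1048 to 1728, carried by Ighm (1227 and 1346) and Cd79b (98.4 and 89.2); of the other genes of both lists, S100a8, Ly6g, Cd3e and Cd79a among them, Ms4a1 alone passed the filter. Oligodendrocyte lineage markers (12 genes) summed to 88.3 to 215.2 and 112 to 237 CPM, and endothelial and mural markers (12 genes) to 57.7 to 168 and 47.7 to 125. Border macrophage markers (16 genes) summed to 773 to 1583 CPM rostrally and 529 to 1017 caudally; Mrc1, which encodes CD206, stood at 141 ± 83.4 and 124 ± 63.7 CPM with reads in 27.2% and 26.8% of cells. Of 12 border macrophage genes tested, 4 were lower at an unadjusted p under 0.05 (4.64% of all genes), Stab1, Maf, Folr2 and Ms4a7, and the median log2 difference was -0.36. Neuron markers had 11 of 13 negative (53.6% of all genes), with a median of -1.01 and 1 lower at an unadjusted p under 0.05. Within plates their median was 3.06 for midbrain minus forebrain and 0.95 for spinal cord minus cerebellum. The highest neuron sum, 422 CPM, was that of midbrain 1, while forebrain samples summed to 17.6 to 105. Astrocyte and radial glia markers had 7 of 9 positive (46.4% of all genes), with a median of 0.51. At the same unadjusted p, 2 of them were higher (3.2% of all genes), Vim and Gja1. Medians were -1.58 over 4 erythroid and -0.55 over 4 monocyte genes. The part of these RNAs in the genes above was not tested. Each of the 16 samples held cells with reads of Xist but of no Y-linked gene (5 to 29 per sample) and cells with Y-linked reads but none of Xist (3 to 27). Xist stood at 333 ± 198 CPM rostrally and 336 ± 185 caudally.

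Between single regions, differences were again few. Cerebellum was lower than forebrain in 2 genes of 14884 (0.0134%), Atp8a1 (log2 -1.40 ± 0.19, edgeR adjusted p = 0.0130) and Rsrp1. Spinal cord was lower than forebrain in 1 (0.00672%) and lower than cerebellum in 1 (0.00672%), in both cases Ccl9, a CC chemokine gene (chromosome 11, 83572919 to 83578636). Cerebellum against midbrain, spinal cord against midbrain and midbrain against forebrain gave 0 calls with edgeR, with 995 (6.69%), 668 (4.49%) and 1178 genes (7.91%) at an unadjusted p under 0.05; cerebellum against forebrain had 9.99%, spinal cord against forebrain 8.69% and spinal cord against cerebellum 7%. DESeq2 was not run on region pairs.

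Ccl9 stood at 313 to 445 CPM in cerebellum and at 64.5, 124, 132 and 113 in spinal cord. All spinal cord samples were below all cerebellum samples on the same plate, and below all of forebrain (247 to 402) and midbrain (162 to 296). The mean was 108 ± 30.3 CPM in spinal cord and 375 ± 62.2 in cerebellum (SD, n = 4), a log2 difference of -1.79 ± 0.25 (edgeR adjusted p = 0.0241), and -1.70 ± 0.25 against forebrain (edgeR adjusted p = 0.0463). Because its high and low regions are both caudal, the caudal-rostral log2 difference was only -0.45 ± 0.17 (edgeR adjusted p = 0.551).

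The precision of the caudal-rostral contrast depended on level. The median half-width of the 95% interval was 0.19 on the log2 scale for the 97 genes of at least 1000 CPM, 0.35 for the 1725 genes from 100 to 1000 and 0.66 for the 4964 genes from 20 to 100. Of these, 97.9%, 97.0% and 59.6% had intervals within a 2-fold change either way. In counts simulated for this comparison over 14107 genes, 200 were changed, all drawn from genes above 20 CPM. The test recovered 39% of those changed 2-fold and 89% of those changed 4-fold, and 6 of its 134 calls were false. Apart from the change, all regions were given the same mean, with no plate difference. Recovery of genes under 20 CPM was not simulated.

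The caudal-rostral comparison called more genes after birth, but its rostral side was then cortex and hippocampus, not forebrain and midbrain. Age and the choice of rostral regions thus cannot be told apart here. At 3 weeks, 85 genes were higher (0.59%) and 105 lower (0.729%) caudally of 14407, in all 1.32%, with 6 samples a side. At 16 weeks, 11 were higher (0.0826%) and 8 lower (0.0601%) of 13318, in all 0.143%, with 8 a side. Side and plate go together at these ages too. The genes higher at 3 weeks included mitochondrial transcripts: mt-Rnr1, mt-Rnr2, mt-Nd1, mt-Nd2, mt-Co1, mt-Nd5 and mt-Cytb. Their log2 differences ran from 0.74 to 1.54 at 3 weeks, from -0.33 to 0.37 at 16 weeks and from -0.23 to 0.19 in embryos. The part of plate or of mitochondrial content in the 3-week calls was not tested. Of the 85 genes higher at 3 weeks, all were tested in embryos; 0 passed there, 31 had the same sign, and the embryonic median log2 was -0.09 against 0.98 at 3 weeks. Of the 105 lower, 104 were tested, 0 passed, 55 had the same sign, and the median was -0.03 against -0.87. Over all genes, 46.4% were positive and 53.6% negative in embryos. The embryonic difference differed from the postnatal one by the test of the difference in 17 of the 85 and 16 of the 104. Over all 21129 genes of that test the share was 0.279%. The 85 and 105 genes were picked by their 3-week difference, and the same 3-week samples enter the test of the difference. That choice by itself enlarges their 3-week medians and these counts, so neither is independent of it.

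**Figure D5:**
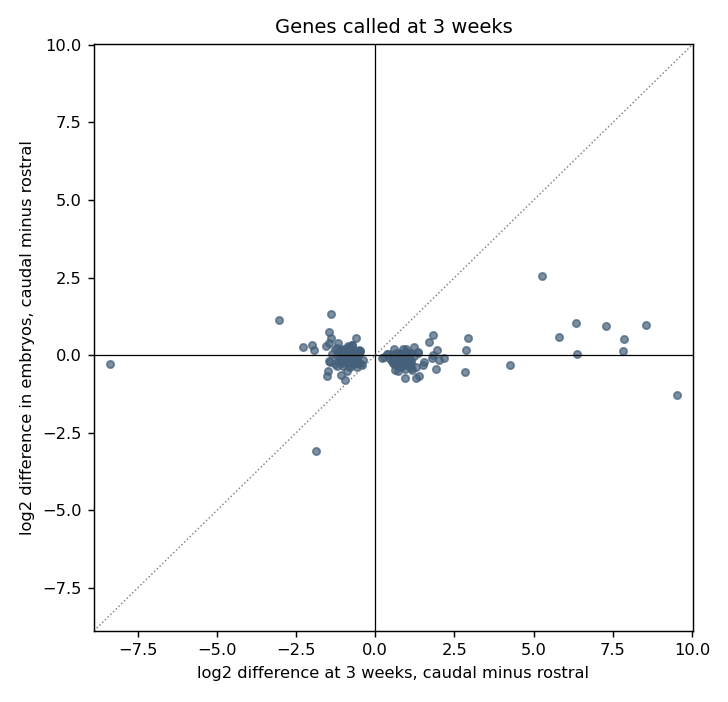
Log2 differences, caudal minus rostral, at 3 weeks (horizontal axis) and in embryos (vertical axis, same scale) for the genes called at 3 weeks and tested in embryos; the dotted line marks equal values. Most points lie near 0 on the embryonic axis on both sides.

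Testing the difference itself, embryonic minus the mean of both postnatal ages, gave 23 genes higher (0.109%) and 36 lower (0.17%) of 21129, in all 0.279% (edgeR over 44 samples). The rostral regions differ between embryonic and postnatal samples in this test too. Cst3, the cysteine protease inhibitor cystatin C, stood at 6510 ± 407 CPM rostrally and 7712 ± 1338 caudally in embryos and at 57294 and 30958 CPM at 3 weeks; its log2 differences were 0.24 in embryos, -0.89 at 3 weeks and -0.13 at 16 weeks (difference 0.79 ± 0.09, edgeR adjusted p = 1.92e-06). Crybb1, a crystallin gene typical of young microglia, had log2 differences of 0.26, -2.28 and -1.09, and Fcrls, an Fc receptor-like microglial gene, of -0.09, -0.99 and -2.19. Sparc, a matrix glycoprotein gene, had 0.14, -0.55 and -0.45, and Fscn1, an actin-bundling protein gene, 0.39, -1.18 and -0.47. The lysosomal protease gene Ctsl went the other way, with -0.32, 0.72 and 0.58. Spp1 stood at 2566 ± 3720 CPM rostrally and 1024 ± 374 caudally in embryos (n = 8), and at 6.49 ± 11.6 and 654 ± 1400 at 3 weeks (n = 6), so the SD was larger than the mean in 3 of these 4 groups.

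Atp8a1 had log2 differences of 0.16 at 3 weeks and -0.07 at 16 weeks beside -0.95 in embryos, and the difference missed the threshold (-0.96 ± 0.25, edgeR adjusted p = 0.0834). Among homeostatic genes, P2ry12 was lower caudally at 16 weeks (log2 -0.53, edgeR adjusted p = 0.000181) and stood at -0.01 at 3 weeks and -0.21 in embryos; its embryonic minus postnatal difference was 0.10 (edgeR adjusted p = 0.941). Of the 22 homeostatic genes, 2 were higher and 10 lower caudally at 3 weeks (0.59% and 0.729% of all genes) and 0 higher and 6 lower at 16 weeks (0.0826% and 0.0601%), with 0 in embryos by edgeR. Of the 8 genes lower at 16 weeks, 7 had the same sign in embryos, where 53.6% of all genes were negative. At an unadjusted p under 0.05, 5 were lower in embryos (4.64% of all genes, 0 passed), and the embryonic median was -0.18 against -0.50. Of the 11 genes higher at 16 weeks, 10 were tested in embryos, 5 had the same sign, 1 was at an unadjusted p under 0.05 in each direction, and the embryonic median was 0.0006 against 0.96. Both sets were picked by their 16-week difference, which by itself enlarges the 16-week medians.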

How the data were processed

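Reads per gene were deposited as counts for each well; the submitters' processing notes list STAR 2.5.2b, featureCounts 1.6.2 and the build GRCm38, and whether counting used strand is not given in the sources used here. Its Length column (other unit, bases) was deposited by the authors and not used. In wells of columns 1 and 2 the counts also contained those of same-plate wells whose names begin alike; these were subtracted (0 of 2095843 gene rows fell below 0). Wells with at least 500 genes and at most 20% mitochondrial counts were kept (701 of 760 embryonic wells; 54 had fewer genes, 5 more mitochondrial counts) and summed per region sample. Spike-in rows (92) stayed out of library sizes.

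edgeR 4.0.16 under R 4.3.3 (robust quasi-likelihood fit, filterByExpr by region, TMM scaling) on the 16 samples with 4 region means tested, two-sided, the mean of cerebellum and spinal cord against that of forebrain and midbrain, and the region pairs. Separate fits served 3 weeks (12 samples) and 16 weeks (16 samples), and 1 fit of 44 samples the difference between ages. CPM are TMM-scaled. Cell shares were compared by exact permutation over samples. DESeq2 1.42.0 and the other settings are given at the end. Scripts were tested on simulated data.

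Genes were to be named if called, at a mean of at least 20 CPM, with groups apart (the 14 largest changes each way; 1 gene qualified), if called in a list, or if among a fixed set, of which 11 are reported and 1 is not reported here; all other genes were named after their values were seen. The members and all 34 gene lists (529 genes, 404 tested, of which edgeR called 0 and DESeq2 9) were chosen with earlier results of these data known. Lists whose medians are not given with the results were T, NK and B cell, neutrophil, oligodendrocyte lineage, endothelial and mural, MHC class II, chemokines and cytokines, immediate early and stress, glycolysis, hypoxia, cholesterol synthesis, lipid transport, transcription factors, integrins, sex-linked genes and sort antigens, with median log2 differences of -0.15, -0.12, 0.74, -0.11, 0.08, -0.19, -0.01, 0.10, 0.08, -0.10, -0.15, 0.07, -0.05, -0.31 and -0.22. Doublets were not called.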

Additional observations from a re-analysis of the deposited data

Results flagged for a closer look

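In 72 sets of 4 samples examined (the 16 genes followed through the settings and the 2 cell shares, by region), 6 had 1 sample far from the other 3; chance gives about 1 in 20. Atp8a1 stood at 173.2 CPM in midbrain 1 and at 137.2 to 140.4 in the other midbrain samples. Spp1 stood at 5716 CPM in forebrain 3 against 304 to 963, and at 10653 in midbrain 4 against 643 to 1059. Gpnmb stood at 505.5 CPM in midbrain 4 against 2.56 to 56.1. Mki67 stood at 227.7 CPM in cerebellum 1 against 73.1 to 86.3. The share of Gpnmb and Spp1 positive cells was 0 in cerebellum 3 against 2.17% to 2.38%.

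The caudal-rostral difference of embryos differed from that of the postnatal ages (edgeR, adjusted p under 0.05) by 0.793 on the log2 scale for Cst3, 1.975 for Crybb1, 1.54 for Fcrls, 0.6792 for Sparc, 0.5413 for Actb, 1.256 for Fscn1 and 0.8535 for Ckb. It was -1.145 for mt-Rnr1, -0.9625 for Rsrp1, -0.7655 for Malat1, -0.9343 for Ctsl and -0.7856 for Clk1. These are the 12 genes with the lowest p among those of at least 20 CPM with their own symbol.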

How the results depend on the processing

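The count of genes higher caudally was 70 with DESeq2 and 1 with counts as deposited, and 0 to 1 over samples left out singly. The count lower was 114 with DESeq2, 3 without Gpnmb and Spp1 positive cells, 2 with a stricter filter, with counts as deposited or without columns 1 and 2, and 0 in a 2-group model, with a replicate block, with limma on 4 region means, without cycling cells, or with any of the 4 regions left out; single samples left out gave 0 to 3. Atp8a1 kept its sign under all 19 other settings (log2 -1.26 to -0.65) but its call in 9 of them (adjusted p with the replicate block 0.0783, edgeR). Without a low-count filter and with all 51 samples in the fit (edgeR adjusted p of Atp8a1 0.13 and 0.122) the 1 gene called was Rsrp1. Whether replicate numbers pair the samples is undecided and they were not used as pairs: same-number correlations were -0.04 to 0.09, while 11 of 16 samples correlated best with a sample of their own number and replicate 2 had the lowest share of Xist-only cells in all 4 regions. At 3 weeks 922 genes were called with DESeq2 and 299 with counts as deposited, at 16 weeks 289 with DESeq2, and for the difference between ages 647 and 100. The cycling share differed by 8.28 points when thinned to 20000 reads (exact permutation p = 0.0462), 12.1 without cerebellum and -1.50 without spinal cord; single samples left out gave 3.43 to 7.25. The share of Gpnmb and Spp1 positive cells differed by -1.85 points at 10 reads each and -1.32 without spinal cord; single samples left out gave -1.71 to -1.04. Signs turned without forebrain for P2ry12 (0.0102), Tmem119 (0.0834), the homeostatic median (0.0252) and the S phase median (-0.11), and without spinal cord for Mrc1 (0.25). Xist, near 0, was 0.0184 with upper-quartile scaling, 0.0008 with the stricter filter, 0.0117 in the 2-group model, 0.0077 on region means, 0.0523 without midbrain, 0.24 without cerebellum and -0.15 to 0.23 over samples left out singly.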
